A study of Homo sapiens with 6 samples.

Results

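The zinc finger genes of chromosome 19 were taken as the protein-coding RefSeq genes (GRCh38.p14) of that chromosome whose symbol is ZNF followed by a number. There were 240 of them, among 1451 protein-coding genes of the chromosome and 20037 of the genome. A transcription start was listed for 210 of the 240 genes, 114 on the plus strand and 96 on the minus strand, and 35 genes had more than 1 start. The remaining 30 genes were counted only by the 2 ends of their interval. The comparison groups were the 1201 other protein-coding genes of chromosome 19, of which 966 had a listed start, and the 237 ZNF genes of other chromosomes, of which 195 had one. The 1201 genes include zinc finger genes with other symbols, such as ZFP and ZSCAN. Another 10 symbols of chromosome 19, 6 with a letter after the number and 4 compound, were set aside from the members and from the comparison group.

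Most of these genes encode C2H2 zinc finger proteins, and many also carry a KRAB domain. A KRAB zinc finger protein binds DNA through its fingers and recruits TRIM28, a corepressor that brings in the H3K9 methyltransferase SETDB1, HP1 proteins and histone deacetylases, which silence transposable elements among other targets. The genes arose by tandem duplication, so neighbours on chromosome 19 are often close relatives, and the 3′ ends of many, where the fingers are encoded, are known to carry H3K9me3 and ZNF274.

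Binding was measured by ChIP-seq in K562, a human chronic myelogenous leukemia line, in clones #4 and #5 that both overexpressed USF2 and Flag-tagged PLAG1-S. PLAG1 is a zinc finger transcription factor that binds G-rich DNA, and USF2 is a basic helix-loop-helix factor that binds the E-box CACGTG. Each clone gave 1 PLAG1-S library, precipitated through the Flag tag, 1 USF2 library and 1 input, at 42.5 M reads per immunoprecipitation. Each line is a single clone and no library analysed here came from cells without the 2 transgenes, so the values describe binding under overexpression only.

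The deposited lists held 37574 and 29889 PLAG1-S peaks in clones 4 and 5, with q-values up to 0.0099 and 0.00974. The USF2 lists held 9338 and 4369 peaks, with q-values up to 0.0494 and 0.0477, a looser threshold than that of PLAG1-S. The median summit held 20.5 to 24 fragments over the 4 lists. Clone 4 peaks that shared 1 bp or more with a peak of that factor in clone 5 are called reproducible and are given by their clone 4 coordinates. A gene had a start peak when a summit lay within 1 kb of a listed start. Fold enrichment is the authors' ratio of the summit to the local background of the merged inputs, and folds are compared within a factor only. The clone 5 fold given for a reproducible peak is the largest among the clone 5 peaks that overlap it.

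PLAG1-S lay at the starts of a smaller share of the zinc finger genes of chromosome 19 than of its other genes when the whole chromosome was counted, but not when genes inside and outside the gene clusters were counted apart. Of the 210 members with a listed start, 91 had a start peak in the clone 4 list (43.3%) and 76 in the clone 5 list (36.2%). A reproducible start peak was found at 66 members, or 31.4% (95% Wilson interval 25.5% to 38%, which like all intervals here covers counting error only), against 41.2% of all protein-coding genes with a listed start. Among the other genes of chromosome 19 the reproducible share was 51.1% (48.0% to 54.3%), and among ZNF genes of other chromosomes it was 58.5% (51.4% to 65.1%). The members minus the rest of the chromosome gave -19.7 points, with -17.0 points in clone 4 alone and -20.8 points in clone 5 alone. The intervals of the members and of both comparison groups do not overlap, and the sign was the same in both clones. Inside the large clusters of members, which are described further on, the share was 27.7% for members and 20.8% for other genes, and outside them 68.4% and 53.6%, so the sign turned in both places. Genes are not replicates and there are 2 clones, so the difference between gene groups was not tested.

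USF2 was called at few of these starts. A USF2 start peak was present at 7 members in clone 4 (3.33%) and at 3 members in clone 5 (1.43%), and 1 member, ZNF507, had a reproducible USF2 start peak (0.476%, 0.0841% to 2.65%), against 7.46% of all protein-coding genes. Among the other genes of chromosome 19 the reproducible share was 9.63%, with 22.4% in clone 4 and 10.9% in clone 5. The members minus these genes gave -9.15 points. Inside the large clusters of members the difference was -2.78 points, and outside them -4.92 points. No member inside had a reproducible USF2 start peak, and outside ZNF507 was the only one among 19 members. Both of these differences rest on few genes and carry no interval. The ZNF genes of other chromosomes stood at 7.18% (reproducible). A PLAG1-S peak with a USF2 peak within 100 bp, both reproducible, stood at the start of the same single member, against 7.35% of all genes and 9.32% of the others on the chromosome. Over the 4 libraries the share of members with a start peak was 39.8% ± 5.05 (SD, n = 2) for PLAG1-S and 2.38% ± 1.35 (SD, n = 2) for USF2. This difference of 37.4 points gave p = 0.33 in a two-sided exact permutation test, the smallest p that 2 libraries against 2 can give, and the looser USF2 lists are also the shorter ones.

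**Figure D1:**
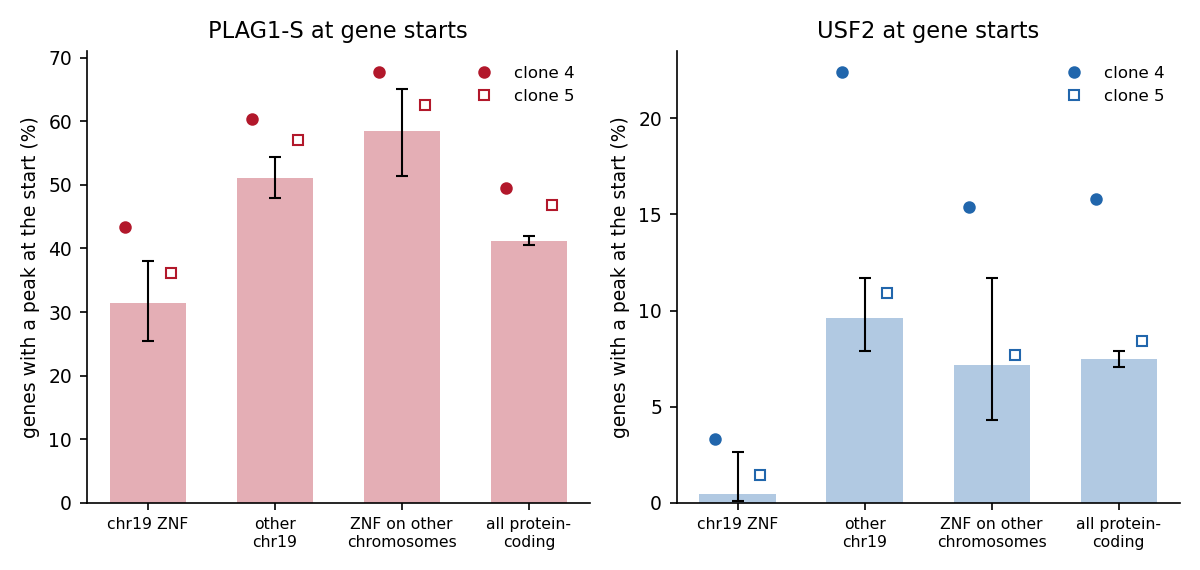
Percentage of genes with a peak summit within 1 kb of a listed start (y axis) for PLAG1-S (left) and USF2 (right) in 4 gene groups, with bars for reproducible peaks, whiskers for 95% Wilson intervals, filled circles for clone 4 and open squares for clone 5. The chr19 ZNF genes have the lowest bar of each panel, 31.4% for PLAG1-S and 0.476% for USF2.

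Most start peaks of the members had folds under 10, with a median near that of the ZNF genes on other chromosomes and under that of the other genes of chromosome 19. The 78 distinct reproducible PLAG1-S start peaks had a median fold enrichment of 5.69 in clone 4 and 5.49 in clone 5, a median width of 368 bp and a median of 26 fragments over the summit. The clone 4 median was 6.35 at the other genes of chromosome 19 and 5.75 at the ZNF genes of other chromosomes, and it was 5.21 over the whole clone 4 list. A fold of 5 was reached by 65.4% of the members' start peaks and 68.9% of those at the other genes. Of the members' start peaks 11 reached a clone 4 fold of 10 (14.1%, 8.06% to 23.5%), against 26.1% (22.7% to 29.7%) of those at the other genes and 20.6% (14.6% to 28.1%) of those at ZNF genes elsewhere, and both intervals overlap that of the members. A fold of 20 was reached by 2 of the members' peaks. The peaks at ZNF566, ZNF274, ZNF776 and ZNF69 with folds of 3.67, 3.60, 3.08 and 2.67 were the weakest that counted. Clone 5 held 78 of the 116 clone 4 start peaks of members (67.2%, 58.3% to 75.1%), and 77.1% of those of the other genes. In the reverse direction, clone 4 held 76 of the 90 clone 5 start peaks of members (84.4%), and 82.5% of those of the other genes. Both clones had a start peak at 67 members, clone 4 alone at 24 and clone 5 alone at 9. At 1 of the 67 no start peak of clone 4 overlapped a clone 5 peak.

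Of the start peaks of members, 2 stood far above the rest. ZNF837 had the highest, at chr19:58380445-58381141, with its summit 286 bp inside the gene. Its PLAG1-S fold was 36.8 in clone 4 (177 fragments) and 35.7 in clone 5 (162 fragments), and no USF2 peak was called within 3 kb in either clone. ZNF507 was the member bound by both factors. Its PLAG1-S peak at chr19:32345302-32346008 had folds of 34.7 (167 fragments) and 30.9 (138 fragments), and the USF2 folds were 23.7 and 19.1 in the same order of clones. In clone 4 the PLAG1-S summit lay at -11 bp and the USF2 summit at -3 bp relative to the start, and all 4 libraries had a strong peak there.

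Next came ZNF324, with PLAG1-S folds of 17.2 and 13.5, and ZNF529 with 14.3 and 9.53. ZNF93, whose protein is known to bind and repress LINE elements, had folds of 11.3 and 10.6. ZNF627, ZNF628 and ZNF57 had clone 4 folds between 11.1 and 11.2, and clone 5 folds of 8.11, 9.41 and 6.12.

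The USF2 start peaks other than that of ZNF507 were each called in 1 clone only. In clone 4 they lay at ZNF57 (fold 6.32), ZNF296 (5.29), ZNF799 (4.78), ZNF526 (4.17), ZNF865 (4.00) and ZNF599 (3.79). In clone 5 they lay at ZNF324 (4.60) and ZNF581 (3.51). These 8 genes were named after their values were seen. All but ZNF599 and ZNF581 had a reproducible PLAG1-S peak overlapping the USF2 peak, and 7 of the 78 PLAG1-S start peaks, with that of ZNF507, were overlapped by USF2 in at least 1 clone. The USF2 summits of the other 6 held 16 to 28 fragments, against 114 and 87 at ZNF507.

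**Figure D2:**
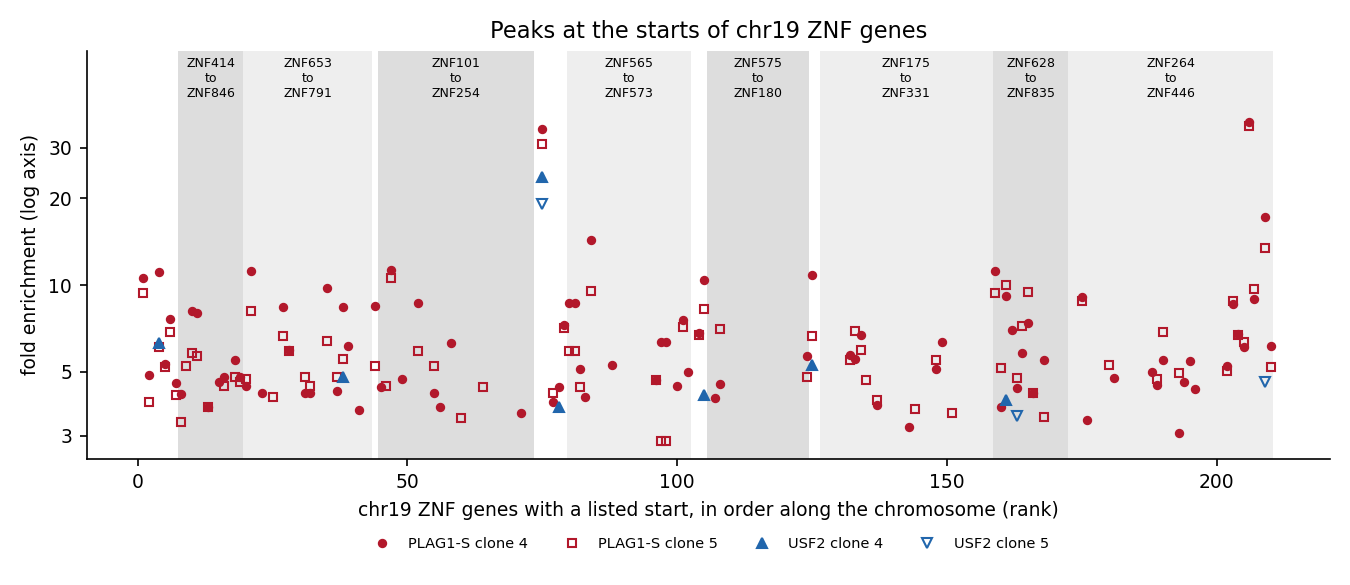
Largest fold enrichment of a start peak (y axis, log scale) for each of the 210 members with a listed start, ranked along the chromosome (x axis), for PLAG1-S (red, filled for clone 4) and USF2 (blue triangles, filled for clone 4). Shading marks the clusters of 10 or more members, and ZNF507 and ZNF837 stand above 30 while most PLAG1-S points lie between 3 and 10.

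The letters of the E-box were searched in the RefSeq window of 250 bases before to 50 after each listed start. CACGTG, which reads the same on both strands, was found in 11 of the 261 windows of members (4.21%, 2.37% to 7.39%), against 8.34% of the 22192 windows of all protein-coding genes and 8.14% of those of the other genes on chromosome 19. The 11 windows belonged to 10 members. Of these 10, ZNF507, ZNF324, ZNF296, ZNF460 and ZNF565 had a reproducible PLAG1-S start peak, and their sequences around the start are shown because the summits lay on or next to the E-box. Each is given from 120 bases before to 20 after the start, on the strand of the gene, with the E-box in capitals (RefSeq, GRCh38.p14; ZNF507 chr19:32345490-32345629 plus strand, ZNF324 chr19:58466960-58467099 plus, ZNF296 chr19:45076459-45076598 minus, ZNF460 chr19:57279862-57280001 plus, ZNF565 chr19:36215065-36215204 minus).
ZNF507: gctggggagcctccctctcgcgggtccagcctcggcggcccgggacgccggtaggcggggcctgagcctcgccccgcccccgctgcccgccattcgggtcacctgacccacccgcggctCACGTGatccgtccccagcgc
ZNF324: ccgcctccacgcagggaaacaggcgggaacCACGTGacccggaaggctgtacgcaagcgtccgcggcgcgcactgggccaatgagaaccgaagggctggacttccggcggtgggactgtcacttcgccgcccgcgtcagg
ZNF296: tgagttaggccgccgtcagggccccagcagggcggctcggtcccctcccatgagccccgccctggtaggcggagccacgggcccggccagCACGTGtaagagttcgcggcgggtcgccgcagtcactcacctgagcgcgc
ZNF460: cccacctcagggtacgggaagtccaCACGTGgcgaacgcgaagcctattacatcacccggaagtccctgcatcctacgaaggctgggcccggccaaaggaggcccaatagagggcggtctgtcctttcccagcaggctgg
ZNF565: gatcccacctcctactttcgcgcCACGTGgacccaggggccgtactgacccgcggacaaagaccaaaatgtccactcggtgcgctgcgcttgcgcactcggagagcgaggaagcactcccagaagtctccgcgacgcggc

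At ZNF324 the E-box began 90 bases before the start. The clone 4 and clone 5 PLAG1-S summits lay 4.5 and 1.5 bp from its centre, and the USF2 summit of clone 5 lay 0.5 bp from it. At ZNF460 and ZNF565 the E-box shown began 95 and 97 bases before the start. The clone 4 PLAG1-S summit lay 2.5 bp from its centre at each, with folds of 9.09 and 8.65. The clone 5 summits lay 13.5 and 38.5 bp away, with folds of 5.70 and 5.91. Neither had a USF2 peak in either clone, so an E-box under a PLAG1-S summit did not always come with a USF2 call. At ZNF507, where the E-box spans the start itself, the PLAG1-S summits of clones 4 and 5 were 12.5 and 15.5 bp away and the USF2 summits 4.5 and 22.5 bp. At ZNF296 the clone 4 PLAG1-S summit was 29.5 bp away, the clone 5 summit 4.5 bp, and the USF2 summit of clone 4 40.5 bp. The peak of ZNF565 is also the start peak of ZNF146, which lies head to head with it. At another listed start of ZNF565, E-boxes began 149, 175 and 248 bases before the start. No PLAG1-S or USF2 summit of either clone lay within 1 kb of these.

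The other 5 members with an E-box were ZNF587, ZNF814, ZNF536, ZNF577 and ZNF331, and none had a reproducible start peak there. ZNF587 and ZNF814 had a clone 4 PLAG1-S peak only, with folds of 5.45 and 4.35 and summits 9.5 and 17.5 bp from the E-box. A clone 4 PLAG1-S summit thus lay within 30 bp of an E-box at 7 of the 10 members (70.0%, 39.7% to 89.2%). A clone 5 summit did so at 4 of 10 (40.0%, 16.8% to 68.7%), and a reproducible peak, by its clone 4 summit, at 5 of 10 (50.0%, 23.7% to 76.3%). A gene counted when any of its E-boxes met the limit, as for ZNF565. The limit of 30 bp was not planned, and ZNF296 at 29.5 bp lies just inside it. A limit of 10 bp gave 3 of 10 members for reproducible peaks and was not applied to the other groups. Among the 99 other genes of chromosome 19 with an E-box the reproducible share within 30 bp was 58.6% (48.7% to 67.8%), and among all 1727 genes with one it was 55.7%. These intervals overlap. For USF2 the reproducible share within 30 bp was 1 of 10 members (10.0%, 1.79% to 40.4%) against 36.4% (27.6% to 46.2%) of the 99 genes, and 33.3% of the 1727, and here too the intervals overlap. In clone 5 alone it was 2 of 10 members. Among the 204 members with a window that lacks the E-box, 63 had a reproducible PLAG1-S start peak there (30.9%) and 0 of 204 a reproducible USF2 peak. A count of 0 allows a share of up to 1.47% by the limit of 3 counts and 1.85% by the Wilson interval. USF2 start peaks of a single list were found at 5 of these 204 members in clone 4 and at 1 in clone 5.

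G-rich letters were common in the windows whether or not a peak was called. The core GGGGC, searched on both strands, was present in 84.3% of the members' windows, 87.2% of those of the other genes on the chromosome and 78.5% of all. It was present in 91.0% (82.6% to 95.6%) of the 78 windows of members with a reproducible peak within 1 kb and in 81.4% (75.2% to 86.4%) of the 183 without. The longer form, GGGGC followed after 6 to 8 bases of any kind by GGG on either strand, which always includes the core, was present in 29.5% (20.5% to 40.4%) and 23.5% (17.9% to 30.1%) of the same windows, and in 29.2% of all. The median G+C content was 63.7% in the windows with a peak and 59.0% in those without, against 64.3% at the other genes of the chromosome, and its part in the start shares was not tested.

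ZNF93 and ZNF91 show how near relatives differed. Both lie in the cluster that runs from ZNF101 to ZNF254, and their proteins are known repressors of LINE and SVA elements. Their 300-base windows were identical at 83.3% of aligned positions. ZNF93 had a PLAG1-S peak in both clones, with 43 and 38 fragments and its clone 4 summit at -144 bp relative to the start, whereas no peak of either factor was called within 3 kb of ZNF91 in any of the 4 lists. Their sequences are given from 200 bases before to 20 after the start with GGGGC in capitals (ZNF93 chr19:19900746-19900965 plus strand, ZNF91 chr19:23395452-23395671 minus strand), since both hold that core at nearly the same place.
ZNF93: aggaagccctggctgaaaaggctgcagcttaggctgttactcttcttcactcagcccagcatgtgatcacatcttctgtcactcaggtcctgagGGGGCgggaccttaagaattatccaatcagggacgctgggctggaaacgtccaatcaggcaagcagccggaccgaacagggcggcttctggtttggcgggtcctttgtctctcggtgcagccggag
ZNF91: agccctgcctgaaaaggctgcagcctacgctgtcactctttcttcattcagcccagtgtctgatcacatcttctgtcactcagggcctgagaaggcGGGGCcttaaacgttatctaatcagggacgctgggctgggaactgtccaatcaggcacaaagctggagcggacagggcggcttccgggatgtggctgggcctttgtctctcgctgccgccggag

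The other members picked for a known role included genes with and without peaks. ZNF43 and ZNF85 of the same cluster, ZNF224, ZNF350 (also known as ZBRK1, a partner of BRCA1), ZNF382 and ZNF649 had no peak of either factor within 3 kb in any list. ZNF331, an imprinted gene, had a single clone 4 PLAG1-S peak inside the gene with a fold of 5.68. ZNF274, which recruits SETDB1 and TRIM28 to the 3′ ends of zinc finger genes, had 2 reproducible PLAG1-S start peaks, 512 and 981 bp inside the gene, with clone 4 folds of 5.24 and 3.60 and clone 5 folds of 5.04 and 4.17. Over all 240 members, 116 had no peak within 3 kb in any list (48.3%), against 31.2% of all protein-coding genes. A PLAG1-S peak of at least 1 clone lay within 3 kb of 123 members, against 67.8% of all genes, and a USF2 peak of at least 1 clone lay within 3 kb of 24, against 27.1%. Reads from near-identical copies can be lost or split in such genes, and how they were treated is not given in the sources used here.

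Around the start, the summits of the members reached further into the gene than upstream of it. Every reproducible PLAG1-S summit was placed by its distance to the nearest listed start, whatever its zone, so that 1 summit of ZNF580 counted here is nearer to the 3′ end of that short gene and is a 3′ end peak elsewhere. Of these summits, 23 lay in the 250 bp before the start, 20 in the first 250 bp of the gene and 21 in the next 250 bp. Between 250 bp and 1000 bp from the start, 9 summits lay upstream and 29 downstream, so that 76.3% (60.8% to 87.0%) were downstream. At the other genes of chromosome 19 the counts were 146 and 154, or 51.3% (45.7% to 56.9%) downstream. The intervals do not overlap, but they treat each pair of gene and summit as a separate count. The peak shared by ZNF569 and ZNF570 is counted on both sides, as is that shared by ZNF580 and ZNF581. The median distance of start peaks from the start was 240 bp for members and 218 bp for the other genes.

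Few members had a peak at the 3′ end or in the body, and the shares were low in ZNF genes of other chromosomes too. Where a summit of a short gene lay within 1 kb of both ends, the nearer end decided. A reproducible PLAG1-S peak lay within 1 kb of the 3′ end of 4 of 210 members (1.90%, 0.743% to 4.79%), against 4.44% of all protein-coding genes and 12.8% (10.9% to 15.1%) of the other genes of chromosome 19. Among the 4 genes is ZNF580, with a summit 739 bp from a listed start. This peak is also the start peak of ZNF581, and the 3′ end peak of ZNF324 is also a start peak of ZNF446. The ZNF genes of other chromosomes stood at 1.03% (0.282% to 3.66%). In clones 4 and 5 alone the members with a 3′ end peak numbered 7 and 6. The gene body, which is the rest of the gene interval, held a reproducible peak in 11 members (5.24%, 2.95% to 9.13%), against 16.4% of all genes and 27.7% (25% to 30.7%) of the others on the chromosome and 9.23% (5.92% to 14.1%) of the ZNF genes elsewhere. For both zones the intervals of the members and of ZNF genes elsewhere overlap. In clone 4 alone 22 members had a body peak and in clone 5 alone 18. The members are the longer genes, with a median of 23100 bp against 12700 bp for the others. Counting all 240 members by either end of the interval, 59 had a PLAG1-S peak there (24.6%), against 49.3% of the 1201 other genes.

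Per length of DNA the contrast between the start and the body was steeper in the members than in the other genes of the chromosome. Reproducible PLAG1-S peaks numbered 171 per 1000 kb of start zone, 11.9 per 1000 kb of 3′ end zone and 2.28 per 1000 kb of body in the members. The start was 75.3 times and the 3′ end 5.24 times as dense as the body. At the other genes of chromosome 19 the densities were 283, 76.8 and 26.8, and the start was 10.6 times and the 3′ end 2.87 times as dense as the body. The start over body ratio of members was 49.8 in clone 4 alone and 46.9 in clone 5 alone, against 7.83 and 8.59 at the other genes. The members' densities rest on 80 pairs of gene and peak at starts, 5 at 3′ ends and 13 in bodies. Of the 5 distinct 3′ end peaks, 2 had a start of another protein-coding gene within 1 kb. So had 3 of 14 distinct body peaks, which include that of ZNF665, a member without a listed start. Those starts belong to other members, so the same peaks are also counted at starts. ZNF genes of other chromosomes had a ratio of 93.5 with 25 body peaks, and all protein-coding genes one of 44.7.

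**Figure D3:**
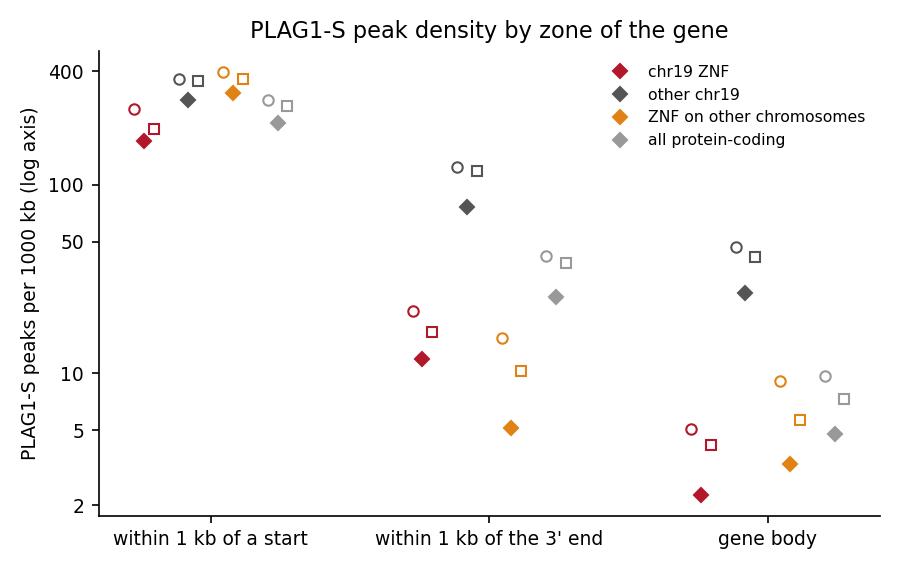
PLAG1-S peaks per 1000 kb (y axis, log scale) in 3 zones of the gene for 4 gene groups, with diamonds for reproducible peaks, circles for clone 4 and squares for clone 5. The chr19 ZNF genes fall from 171 at the start to 2.28 in the body, and the other chr19 genes from 283 to 26.8.

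The few peaks away from a start included some of the strongest at any member. At ZNF653, on the minus strand, the peak at chr19:11482096-11482996 lay past the 3′ end, with PLAG1-S folds of 46.9 (210 fragments) and 38.8 (164 fragments) and USF2 folds of 19.1 and 13.5. No start of another protein-coding gene lay within 1 kb of it. The largest clone 4 PLAG1-S fold among flank peaks of the other genes of chromosome 19 was also 46.9. Another gene within 3 kb may therefore share this peak, which was not examined. ZNF653 had the most reproducible PLAG1-S peaks, 5, but the peak at its own start reached folds of 4.46 and 4.71 only. Inside ZNF611 the peak at chr19:52725492-52725983 lay 9265 bp from the start, with PLAG1-S folds of 29.0 and 19.1 and USF2 folds of 9.49 and 7.87. USF2 had a reproducible peak at the 3′ end of 1 of 210 members, against 0.77% of all genes, and in the body of 1, against 1.83%, and these are the ones at ZNF653 and ZNF611. The other 13 body peaks of PLAG1-S had clone 4 folds from 4.29 to 8.01, the highest in ZNF616 (8.01), ZNF846 (7.15) and ZNF536 (7.11). In clone 5 the peak of ZNF616 was split into a peak of fold 3.94 at the same place and one of 4.70 nearer to the start, and the folds of ZNF846 and ZNF536 were 7.52 and 4.72.

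Peaks in the 3 kb flanks lay mostly at the starts of neighbouring genes. Of the 15 distinct flank peaks, 13 had a start of another protein-coding gene within 1 kb, or an end where no start is listed. The flank peak of ZNF766 is counted by an end of ZNF480, which has no listed start. The peak at chr19:7522286-7523029, beyond the 3′ end of ZNF358, had the largest folds of any peak near a member, PLAG1-S folds of 57.5 and 55.5 beside USF2 folds of 44.1 and 32.2, and lay at the start of MCOLN1, a lysosomal cation channel gene. That of ZNF296 at chr19:45078920-45079739, with PLAG1-S folds of 40.0 and 36.2 and USF2 folds of 10.4 and 7.78, lay at the start of GEMIN7, a gene of the SMN complex. The peak with folds of 41.2 and 34.9 at an end of ZNF524 lay at the start of FIZ1 and had no USF2 peak. The start peak of ZNF358 itself had folds of 4.57 and 4.17. With ZNF507, ZNF653 and ZNF611, these make up the 5 members with a reproducible USF2 peak within 3 kb (2.08% of 240), against 10.3% of all genes and 17.3% of the other genes on the chromosome. For PLAG1-S the share within 3 kb was 32.9% (27.3% to 39.1%), against 52.0% of all genes and 68.6% of the others.

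The start peaks were unevenly spread over the gene clusters. Members less than 500 kb apart were joined, which gave 8 clusters of 10 or more members with 218 members in all, and 12 smaller groups and single genes. In the cluster from ZNF101 to ZNF254, 3 of 29 members with a listed start had a reproducible PLAG1-S start peak (10.3%, 3.58% to 26.4%), namely ZNF93, ZNF626 and ZNF430. In the clusters from ZNF575 to ZNF180 and from ZNF175 to ZNF331 the counts were 2 of 19 (10.5%) and 4 of 32 (12.5%). The highest were 7 of 12 from ZNF414 to ZNF846 (58.3%, 32.0% to 80.7%) and 8 of 14 from ZNF628 to ZNF835 (57.1%, 32.6% to 78.6%). These clusters are the lowest and highest of the 8 by this share, so the distance between them is a description only. In clone 4 alone the 3 low clusters had 8, 3 and 7 such members and the 2 high ones 8 and 9, and in clone 5 alone the counts were 6, 2 and 8, and 8 and 8. The median G+C content of the windows was 56.0%, 55.3% and 61.7% in the 3 low clusters and 61.3% and 67.7% in the 2 high ones.

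The other genes that lie between the members had a low share as well. Inside the large clusters 53 of 191 members had a reproducible PLAG1-S start peak (27.7%, 21.9% to 34.5%), and so had 15 of 72 other protein-coding genes there (20.8%, 13.1% to 31.6%). Outside them it was 13 of 19 members (68.4%, 46.0% to 84.6%) and 479 of 894 other genes (53.6%, 50.3% to 56.8%). The other genes include zinc finger genes with other symbols, and ZSCAN5A, ZFP30 and ZSCAN18 are among the 15 bound ones inside. The intervals of the other genes inside and outside do not overlap, and within either place the intervals of members and others do. In clone 4 alone the shares inside were 40.3% for members and 30.6% for others, and in clone 5 alone 33.0% and 25%. The split was made after the cluster counts had been seen. In both places the members' value was above that of the other genes, whereas over the whole chromosome it was below.

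Genes in a list of KRAB silencing cofactors and other chromatin factors were mostly bound by PLAG1-S at their starts. The list also holds NSD2, EHMT2, UHRF1 and SMARCA5, whose part in KRAB silencing was not examined here. Of the 22 genes in the list, 18 had a listed start, and 14 of these had a reproducible PLAG1-S start peak (15 in each clone). The largest clone 4 folds were at MORC2 (31.6), HDAC1 (28.6), HDAC2 (21.9), EHMT2 (21.2) and CBX3 (19.6), and SETDB1 stood at 8.83. USF2 had a reproducible start peak at 5, namely MORC2, EHMT2, HDAC2, CBX3 and NSD2, with 5 genes in clone 4 alone and 4 in clone 5 alone, where CBX3 had no summit within 1 kb of its start. TRIM28, which lies on chromosome 19 without a listed start, had a PLAG1-S peak at an end with folds of 6.87 and 8.97. It also had a reproducible USF2 peak at an end, with a clone 4 fold of 3.59 and no clone 5 summit within 1 kb of an end. These counts stand beside 41.2% and 7.46% of all genes for PLAG1-S and USF2.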

How the data were processed

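ChIP-seq libraries of PLAG1-S (anti-Flag) and USF2 from clones 4 and 5 of K562 were used, with 2 libraries per factor. The clone number pairs them, since both factors were precipitated from the same clonal line. Per the submitters' processing notes the tools were FastQC, cutadapt, HISAT2 2.0.4, SAMtools, MACS2, bedtools and HOMER, on hg38, and other versions are not given in the sources used here. The authors called peaks in each library against the merged inputs, whose own signal was not analysed here. The fold deposited by the authors is a ratio to local background, the deposited score is 10 times the −log10 q, and the −log10 p and q deposited by the authors refer to the summit. Positions and summits were used as deposited. Fragments over a summit were recomputed from the deposited fold and −log10 p within a tolerance of 0.001.

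Genes came from RefSeq GRCh38.p14 and starts from its promoter table. A summit within 1 kb of a start was a start peak and within 1 kb of the 3′ end a 3′ end peak (the nearer where both held, with shared bases counted in the start's length), otherwise inside the gene a body peak, otherwise within 3 kb a flank peak. Shares carry 95% Wilson intervals, and the 2 factors were compared by an exact permutation test over the 4 libraries. Alternatives were each clone alone, the union, 50% reciprocal overlap, the clone as a block, −log10 q limits, other zone widths, intervals in place of summits and isolated genes, and, added after the data were seen, genes inside and outside the large clusters. Overlap and zones were tested on simulated data and against bedtools 2.31.1. Python 3.11.15, pandas 2.3.3, scipy 1.17.1 and Biopython 1.88 were used.

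Named genes were members co-bound at the start, the 8 largest clone 4 PLAG1-S folds at starts, bodies and 3′ ends, the 5 largest USF2 folds, the 3 with most peaks and 10 with a known role. The members and lists were chosen with earlier results of these data known. KRAB domains and finger numbers were not analysed here.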

Additional observations from a re-analysis of the deposited data

How the results depend on the processing

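The PLAG1-S difference from the other genes of chromosome 19, -19.7 points, turned to 6.92 points among genes inside the large clusters and 14.8 points among genes outside them, a split chosen after seeing the data. The USF2 difference stayed negative in both places but was smaller, -2.78 points inside and -4.92 points outside, against -9.15 points over the whole chromosome. ZNF507 alone stands for the members in it, so the sign within either place is a description only. With 2 clones per factor, none of the other 11 alternatives reversed a difference. The shares, ratios and folds cannot change sign. The 3′ end share and both density ratios moved by at least the SD between the clones in 10 of 11 alternatives. With either clone left out, the members' PLAG1-S start share was 36.2% to 43.3%, USF2 start share 1.43% to 3.33%, 3′ end share 2.86% to 3.33%, body share 8.57% to 10.5% and co-bound start share 0.952% to 3.33%. The differences were -20.8 to -17.0 points (PLAG1-S) and -19.0 to -9.44 points (USF2), the density ratios 46.9 to 49.8 (start over body) and 3.97 to 4.23 (3′ end over body), and the median fold 5.05 to 5.20.

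With the replicate block, the clone that pairs the libraries, the PLAG1-S start, USF2 start, 3′ end and body shares were 39.8%, 2.38%, 3.10% and 9.52%, with density ratios of 48.3 and 4.10 and a fold of 5.13, and the exact permutation p between the factors was 0.5, the smallest that 2 pairs allow. The union of the clones gave 47.1%, 4.29%, 3.81% and 13.3% for the same shares, 4.29% co-bound, -18.9 points for USF2, ratios of 38.5 and 3.75 and a fold of 5.07. A 50% reciprocal overlap gave 23.8% at the start and 1.43% at the 3′ end, ratios of 62.3 and 4.95 and a fold of 6.12. A −log10 q of at least 10 gave 15.7% at the start, 0.952% at the 3′ end and 1.90% in the body, -14.9 points for PLAG1-S, ratios of 107 and 6.81 and a fold of 8.50. Zones of 500 bp gave 0.952% at the 3′ end, 8.57% in the body, -16.1 points and ratios of 72.8 and 2.47. Zones of 3 kb gave 4.76% at the 3′ end, -26.2 points and ratios of 26.5 and 4.88. Peak intervals in place of summits gave 2.38% at the 3′ end, 6.67% in the body and ratios of 62.7 and 5.96. The 174 members with no end of another coding gene within 2 kb of their start gave 1.15% at the 3′ end and ratios of 97.9 and 3.34. The ratios rest on 13 body and 5 3′ end peaks, and the cause of each move was not tested.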

Other observations

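Of the zinc finger genes of chromosome 19 that the symbol rule leaves out, only 2 small groups of symbols were counted. These were the ZFP, ZSCAN, ZIM and ZIK genes and the ZNF genes with a letter after the number. Zinc finger genes with other symbols were not counted apart. The intervals of their PLAG1-S start shares include both the 31.4% of the members and the 41.2% of all genes. The 10 ZFP, ZSCAN, ZIM and ZIK genes with a listed start are counted above among the other genes of the chromosome. A reproducible start peak was found at 4 of them (40.0%, 95% Wilson interval 16.8% to 68.7%). The clone 4 folds were 11.0 at ZSCAN5A, 7.03 at ZFP30, 5.32 at ZFP36 and 4.22 at ZSCAN18. ZFP36 encodes tristetraprolin, a CCCH protein that binds RNA and is no C2H2 factor. Of the 6 ZNF genes with a letter after the number, 2 had a reproducible start peak (33.3%, 9.68% to 70.0%).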
